A study of Mus musculus with 2 samples.

Results

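The genes described here make cholesterol, control its uptake, move it between membranes, store it as ester and export it. They are 34 named genes chosen by symbol and joined by Ensembl gene identifier across all tables, out of 55536 named genes measured. They fall into 18 synthesis enzymes, 5 SREBP factors and their regulators, 4 genes of uptake control and sterol transport, 2 genes of esterification and oxysterol production, and 5 LXR receptors and efflux genes. All 34 were found once each in both libraries, and the rule used their names, not their measured values. Earlier results of these data were known, however, when the members and the comparison lists were chosen.

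The source was macrophages grown from the bone marrow of C57BL/6J mice, and total RNA of their nuclear (in the labels also nucleoplasmic) fraction was sequenced after removal of ribosomal RNA. The cells met Lipid A, the moiety of bacterial endotoxin that the receptor TLR4 recognises, at 100 ng/ml for 12 h, were kept without it for 12 h, and were given it again at 100 ng/ml for 40 min. The series holds 1 group of 2 libraries, called biological replicates 1 and 2, with the same donor entry and no age or sex collected. Unexposed cells, cells after 1 exposure and the cytoplasmic fraction were not analysed here, so the values below are levels in 1 state of the cells and no treatment effect can be read from them. The labelled RNA input was 1 µg for library 1 but 500 ng for library 2, and this difference and the replicate number cannot be told apart. Since separate cultures or animals are not stated, the spread between the libraries may be technical.

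Depth over named genes was 19797829 expected counts in library 1 and 17213606 in library 2. The expected count is the program's estimate of the reads that belong to a gene. The share of counts in the mitochondrial genome was 2.63% in library 1 and 6.60% in library 2, and that of the 34 cholesterol genes was 0.379% and 0.413%. Detected means 10 or more expected counts in both libraries. All 6 macrophage markers examined were detected, with a median of 235 TPM, from 1311 TPM for Lyz2 to 59.9 TPM for Itgam. Of the 15 markers of T cells, B cells, neutrophils, fibroblasts and endothelium 0 were detected, the summed level of each type was at most 1.06 TPM in a library, and Cd3e, Elane, Pdgfra and Emcn had no count in either library. TPM is a gene's share of all transcripts after division by length, scaled to the same total in both libraries, so it can be compared between genes. Levels are from the RSEM gene table unless kallisto, another program run by the authors on the same libraries, is named. In bulk RNA, fewer cells that express a gene and less RNA per cell cannot be told apart.

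Cells balance cholesterol through a pair of opposed circuits. When membrane cholesterol is low, the escort protein SCAP carries SREBP precursors from the endoplasmic reticulum to the Golgi, where proteases release the factor that switches on the synthesis enzymes, and INSIG proteins hold SCAP back when sterols are plentiful. When cholesterol is in excess, oxysterols activate the nuclear receptors LXRα and LXRβ, which switch on export pumps and the degradation of lipoprotein receptors. Macrophages take up much cholesterol from lipoproteins and dead cells, store it as ester and pass it to apolipoproteins, and both circuits are known to respond to inflammatory signals in these cells.

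Promoter sequence gave a feature that the choice of genes did not use. RefSeq promoter windows on GRCm38.p6, running from 250 bases before to 50 bases after each start, matched 28 of the 34 genes in 37 windows and were searched on both strands for 4 motifs. The pentamer CCAAT, bound by the factor NF-Y, which works with SREBPs at many sterol genes, was present for 22 of the 28 genes (78.6%). It was present for 14 of 15 synthesis enzymes (93.3%), all but Acat2, and for 8 of the 13 other genes, against 43.0% of 8726 detected protein-coding genes and 41.1% of all 27025 genes with a window. Counted by window, CCAAT stood in 62.2% of the members' windows and in 37.4% of all windows. The median GC content was 62.3% in the members' windows and 60.7% in those of detected protein-coding genes. The sterol response element core TCACNCCAC, to which SREBPs bind, was present for 1 gene, Hmgcs1, and for 1.44% of all genes. The E-box CACGTG was present for 6 genes, Hsd17b7, Sc5d, Dhcr7, Scap, Insig1 and Abca1 (21.4%), against 12.1% of detected protein-coding genes. For the LXR type of site only the exact direct repeat of AGGTCA with 4 bases between the copies was searched. It was in none of the members' windows, for 0 of the 8726 detected protein-coding genes and for 0.0148% of all genes. So rare an exact match cannot tell whether a member's window, that of Abca1 included, holds an LXR site with variant letters. A match is only a run of letters and not a shown binding site, and a missing match says nothing of sites outside the window or of variant letters.

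The windows of Hmgcs1 and Abca1 are shown because Hmgcs1 is the 1 member with the sterol response element core and Abca1 is the main export pump. The Hmgcs1 window lies at chr13:119690101-119690400 on the plus strand, with capitals for TCACCCCAC, which begins 137 bases upstream of the start, and for ATTGG, which is CCAAT read on the other strand and begins 237, 176 and 45 bases upstream and once more just inside the gene. None of these matches overlaps another. The Abca1 window lies at chr4:53159846-53160145 on the minus strand, with capitals for CACGTG, which begins 147 bases upstream. Both are written 5′ to 3′ along the gene.
Hmgcs1: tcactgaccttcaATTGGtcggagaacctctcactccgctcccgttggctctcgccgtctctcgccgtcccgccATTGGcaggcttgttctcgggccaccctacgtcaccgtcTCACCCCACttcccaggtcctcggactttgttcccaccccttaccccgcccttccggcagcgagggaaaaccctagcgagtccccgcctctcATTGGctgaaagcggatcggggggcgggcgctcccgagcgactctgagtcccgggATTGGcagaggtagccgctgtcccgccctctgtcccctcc
Abca1: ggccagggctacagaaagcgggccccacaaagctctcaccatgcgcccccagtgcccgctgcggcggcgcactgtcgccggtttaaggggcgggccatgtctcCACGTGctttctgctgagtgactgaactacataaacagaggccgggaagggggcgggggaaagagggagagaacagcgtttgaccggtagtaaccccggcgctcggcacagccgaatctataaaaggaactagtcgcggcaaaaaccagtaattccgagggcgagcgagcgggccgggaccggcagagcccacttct

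Transcripts of the LXR and efflux side were far more abundant than those of the synthesis enzymes. All 34 genes were detected, against 49.9% of all protein-coding genes. Their median was 6.83 TPM, close to the 6.38 TPM of the median detected protein-coding gene, but the roles lay far apart. The synthesis enzymes had a median of 4.41 TPM in library 1 and 4.32 in library 2, at the 40.4th percentile of the 10991 detected protein-coding genes. The LXR and efflux genes had a median of 58.1 TPM in library 1 and 47.5 in library 2, at the 91.6th percentile. Of the 18 enzymes 13 lay below the median gene and 0 among the top 10% (a mean above 42.6 TPM), while 3 of the 5 LXR and efflux genes lay in the top 10% and 0 below the median.

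**Figure D1:**
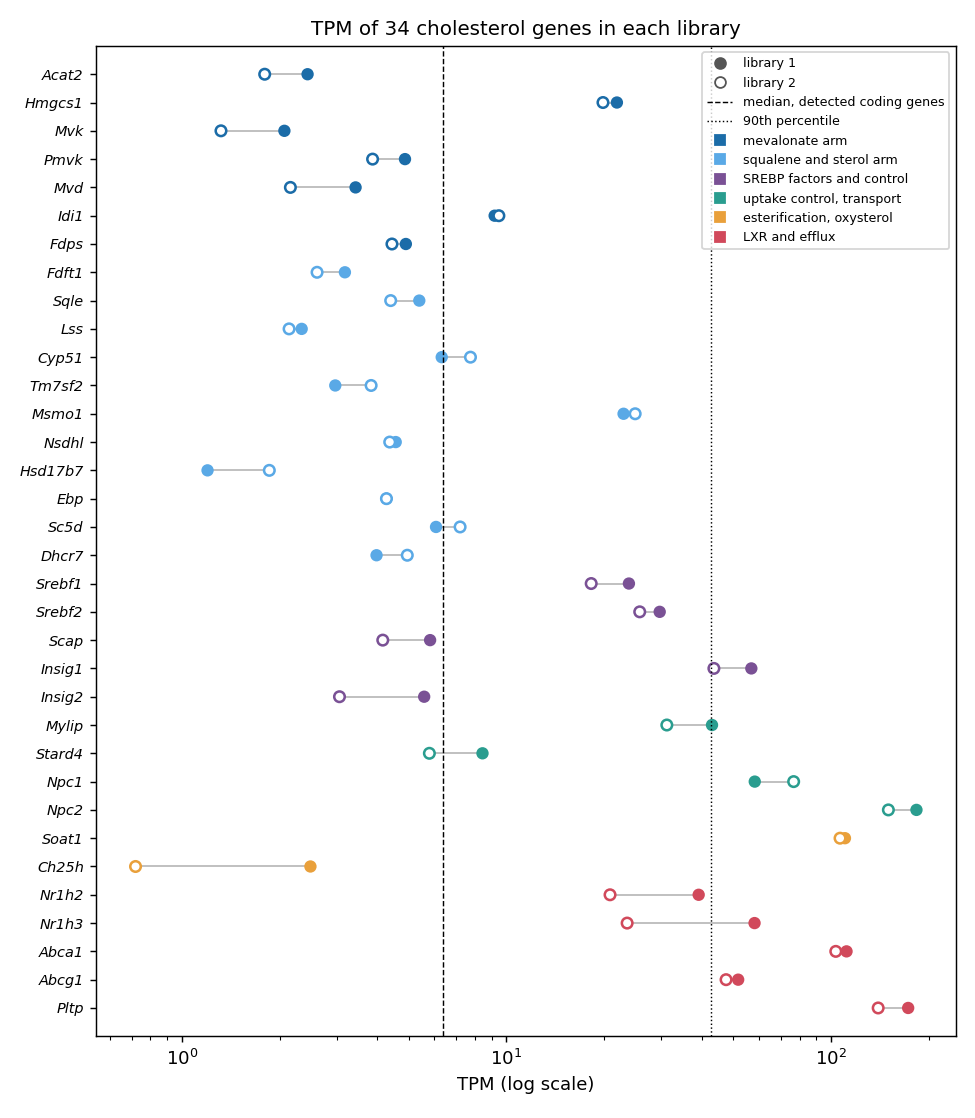
TPM of each of the 34 genes on a log axis, with filled circles for library 1 and open circles for library 2, colours for the role, a dashed line at the median of detected protein-coding genes (6.38 TPM) and a dotted line at their 90th percentile (42.6 TPM). Most synthesis enzymes sit left of the dashed line, and Abca1, Pltp, Npc2 and Soat1 are among those right of the dotted line in both libraries.

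In the mevalonate arm, which builds isoprene units from acetyl-CoA, Hmgcs1 stood above the rest. Hmgcs1 (ENSMUSG00000093930.2, chr13:119690379-119708260 on mm10, plus strand), the enzyme that forms HMG-CoA, had 21.9 TPM in library 1 and 19.8 in library 2. Idi1, which interconverts the isoprene building blocks, followed with 9.20 TPM in library 1 and 9.48 in library 2. Both were above the median gene in both libraries, and no other gene of this arm was. Fdps, which joins these units to farnesyl diphosphate, had 4.90 and 4.44 TPM in libraries 1 and 2. Pmvk, the phosphomevalonate kinase, had 4.87 TPM in library 1 and 3.87 in library 2. Fdps and Pmvk overlapped in range. Mvd, the decarboxylase of the arm, had 3.43 TPM in library 1 and 2.16 in library 2, but its mean of 2.79 TPM was 5.30 TPM with kallisto values scaled to the RSEM total over detected protein-coding genes, above the 3.85 TPM of Fdps and 3.72 TPM of Pmvk on that scale. Acat2, the cytosolic thiolase at the start of the pathway, had 2.44 TPM in library 1 and 1.80 in library 2. Mvk, mevalonate kinase, was lowest with 2.07 TPM in library 1 and 1.32 in library 2, from 60 and 39 expected counts. Acat2 overlapped in range with both Mvd and Mvk, while Mvd lay above Mvk in both libraries.

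In the squalene and sterol arm, which turns farnesyl diphosphate into squalene, closes the rings and trims lanosterol to cholesterol, Msmo1 was the highest enzyme of the whole pathway. Msmo1 (ENSMUSG00000031604.10, chr8:64718139-64733792, minus strand), the methylsterol oxidase that starts removal of the methyl groups, had 23.0 TPM in library 1 and 24.9 in library 2. By gene TPM it lay above Hmgcs1 in both libraries, and no other enzyme came within reach of this pair. Of Msmo1's TPM 55.6% in library 1 and 63.7% in library 2 lay outside protein-coding transcripts, against 10.5% and 13.2% for Hmgcs1. The coding Msmo1-201 had 8.41 TPM in library 1 and 8.34 in library 2, below the 11.9 and 13.9 TPM of the coding Hmgcs1-201. The order of the pair therefore holds for all transcripts together and not for the coding ones. Cyp51, the lanosterol demethylase, had 6.32 TPM in library 1 and 7.75 in library 2. Sc5d, a sterol desaturase near the end of the pathway, had 6.07 TPM in library 1 and 7.20 in library 2. The ranges of Cyp51 and Sc5d overlapped and straddled the median gene.

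The other 8 enzymes of this arm lay below the median gene in both libraries. Sqle, squalene epoxidase, had 5.39 TPM in library 1 and 4.40 in library 2. Nsdhl, the dehydrogenase that acts after Msmo1, had 4.56 TPM in library 1 and 4.37 in library 2. Dhcr7, a reductase of the closing steps, had 3.98 TPM in library 1 and 4.95 in library 2. Ebp, the sterol isomerase, had 4.27 TPM in both libraries, within the range of Dhcr7, which also covered Nsdhl and overlapped Sqle. Tm7sf2, a sterol reductase, had 2.97 TPM in library 1 and 3.83 in library 2. Fdft1, squalene synthase, had 3.18 TPM in library 1 and 2.61 in library 2. Lss, which closes the rings to form lanosterol, had 2.34 TPM in library 1 and 2.14 in library 2, and its range did not overlap that of Fdft1. Its mean of 2.24 TPM was 3.54 TPM with kallisto brought to the RSEM total. Hsd17b7, the ketoreductase that completes demethylation, was the lowest enzyme by mean, with 1.20 TPM in library 1 and 1.86 in library 2, but Mvk and Acat2 were below it in library 2 and its range overlapped that of both. By mean the whole pathway spanned 1.53 to 23.9 TPM, with Hsd17b7 at one end and Msmo1, which acts in the same demethylation steps, at the other.

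Among the regulators, the SREBP factors and Insig1 were well above most enzymes of the pathway. Insig1 (ENSMUSG00000045294.11, chr5:28071363-28078662, plus strand), the sterol-responsive brake on SCAP, had 56.8 TPM in library 1 and 43.6 in library 2. Srebf2, whose product is the main activator of cholesterol synthesis, had 29.7 TPM in library 1 and 25.8 in library 2. Srebf1, whose products favour fatty acid synthesis, had 23.9 TPM in library 1 and 18.2 in library 2. The ranges of these 3 genes did not overlap, and all 3 exceeded 16 of the 18 enzymes in both libraries. Scap had 5.82 TPM in library 1 and 4.16 in library 2. Insig2, the INSIG gene that does not depend on SREBP, had 5.58 TPM in library 1 and 3.06 in library 2. Scap and Insig2 overlapped in range and lay below the median gene, so Insig1 averaged 50.2 TPM and Insig2 4.32 TPM over the same libraries.

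Srebf1 is transcribed from alternative starts, and the annotated transcripts Srebf1-201 and Srebf1-207 begin at different ones. Srebf1-201 begins at the upstream start and codes for the longer SREBP-1a amino end, while Srebf1-207 begins 10139 bases downstream on the minus strand of chromosome 11 and codes for the shorter SREBP-1c end. In RSEM's transcript table Srebf1-201 had 12.8 TPM in library 1 and 6.58 in library 2, from 1126 and 607 expected counts. Srebf1-207 had 1.91 TPM in library 1 and 1.92 in library 2, from 122 and 128 counts. The upstream form was higher in both libraries. In kallisto's table the upstream form was again higher, with 2.86 and 3.59 TPM in libraries 1 and 2, against 0.750 and 1.55 TPM for the downstream form. The annotated transcripts also differ at their far ends, since Srebf1-201 reaches base 60199089 and Srebf1-207 stops at base 60200463. Reads from exonic bases past that stop fit only Srebf1-201 of the pair, whichever start they came from. These TPM values therefore do not measure use of the starts. The coding starts from GRCm38 are shown because the coding sequences of the forms differ there. Capitals mark the 91 coding bases of Srebf1-201 alone and the 19 of Srebf1-207 alone. The next 30 shared bases are in lower case.
Srebf1-201: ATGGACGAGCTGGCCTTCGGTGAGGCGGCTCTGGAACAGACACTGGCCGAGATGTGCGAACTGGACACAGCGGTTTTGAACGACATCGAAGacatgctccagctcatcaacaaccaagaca
Srebf1-207: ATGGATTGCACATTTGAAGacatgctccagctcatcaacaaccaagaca

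Npc2, Npc1 and Soat1, which move cholesterol out of lysosomes and store it, were among the most abundant transcripts of the set, while Stard4 and Ch25h were not. Npc2, the soluble lysosomal protein that takes up cholesterol freed from lipoproteins, was the highest of all 34 with 183 TPM in library 1 and 150 in library 2 (mean 167 ± 23.4 TPM, SD, n = 2). Npc1 (ENSMUSG00000024413.14), the membrane protein to which it hands the sterol, had 58.2 TPM in library 1 and 76.7 in library 2. The ranges of these partners did not overlap. Soat1, which esterifies cholesterol for storage in droplets, had 110 TPM in library 1 and 107 in library 2. Mylip, an E3 ubiquitin ligase and LXR target that degrades lipoprotein receptors, had 43.0 TPM in library 1 and 31.2 in library 2. Stard4, a carrier that moves sterol between membranes and is an SREBP target, had 8.44 TPM in library 1 and 5.79 in library 2, a mean of 7.12 TPM that was 12.8 TPM with kallisto brought to the RSEM total. Npc2, Soat1 and Npc1 each ranked within the top 10% of detected coding genes in both libraries, Mylip lay just under it at the 88.2nd percentile, and Stard4 was near the median gene with RSEM.

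Ch25h, the oxysterol-producing hydroxylase known as an interferon-responsive gene, was the least abundant member in library 2. It had 2.49 TPM in library 1 and 0.72 in library 2, from 63 and 19 expected counts. Both values rest on few counts. Soat1 and Ch25h, the 2 genes of this role, therefore averaged 109 and 1.60 TPM.

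On the efflux side, the pumps and the transfer protein were abundant and close between the libraries. Pltp, the phospholipid transfer protein that remodels lipoprotein particles, had 173 TPM in library 1 and 140 in library 2. Abca1 (ENSMUSG00000015243.4, chr4:53030787-53159895, minus strand), the pump that loads cholesterol and phospholipid onto apolipoproteins, had 112 TPM in library 1 and 103 in library 2 (108 ± 5.79 TPM, SD, n = 2), from 23760 and 23411 expected counts. Abcg1, the pump that passes cholesterol to mature particles, had 51.8 TPM in library 1 and 47.5 in library 2. The ranges of these 3 genes did not overlap, so their order held in both libraries. The receptor genes varied more between the libraries, and by mean TPM both lay under the pumps, although Nr1h3 was above Abcg1 in library 1. Nr1h3 (ENSMUSG00000002108.10, chr2:91184061-91202834, minus strand), which encodes LXRα, had 58.1 TPM in library 1 and 23.6 in library 2. Nr1h2, which encodes LXRβ, had 39.1 TPM in library 1 and 20.9 in library 2. Nr1h3 was above Nr1h2 in each library, though by little in library 2, and their ranges over the libraries overlapped. Both were lower in library 2, so this overlap does not bear on their order within a library. Their difference was not tested.

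Set against each other, the synthesis enzymes lay below the LXR and efflux genes by 3.22 on the log2 scale. This value, the synthesis median of log2(TPM + 1) minus the LXR and efflux median, was -3.45 in library 1 and -3.19 in library 2, with an SD of 0.18 over the libraries. As plain TPM, the median of the LXR and efflux genes was 11.2 times that of the enzymes, 13.2 times in library 1 and 11.0 times in library 2. Summed, the 18 enzymes had 112 TPM in library 1 and 111 in library 2, and the 5 LXR and efflux genes had 434 and 335 TPM. In library 1 the highest enzyme, Msmo1 at 23.0 TPM, was below the lowest LXR or efflux gene, Nr1h2 at 39.1 TPM. In library 2 the groups overlapped, because Msmo1 at 24.9 TPM was above Nr1h2 at 20.9 TPM and Nr1h3 at 23.6 TPM. With targets among the members in place of roles, 20 SREBP targets (the enzymes, Insig1 and Stard4) had a median of 4.46 TPM. The 5 LXR targets (Abca1, Abcg1, Pltp, Mylip and Srebf1) had a median of 49.6 TPM, a difference of -3.21. Srebf1 was counted here as a whole gene, although RSEM assigned its annotated downstream form Srebf1-207 only 1.91 TPM in library 1 and 1.92 in library 2. LXR targets outside the members are in a list given below and were left out of this set. Within the SREBP targets, Insig1 stood apart from the enzymes at 50.2 TPM. No p-value is given for these differences, since genes are not replicates of a condition.

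**Figure D2:**
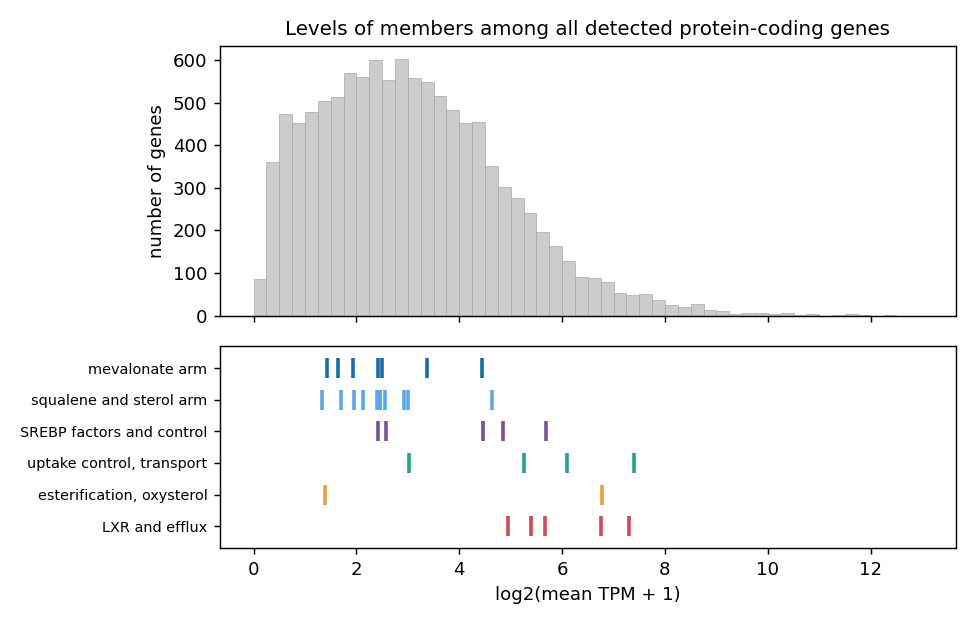
The upper panel counts all detected protein-coding genes by log2(mean TPM + 1), and the lower panel marks each member of each role on the same axis. The LXR and efflux marks lie right of every synthesis mark when the libraries are averaged, and 13 of 18 synthesis marks lie left of the median gene.

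Other genes of the same pathways, taken as lists, give the members a setting. Of 24 such genes 22 were detected, with a median of 10.5 TPM at the 63.0th percentile. The proteases that cleave SREBPs were both detected, with 14.3 TPM for Mbtps2 and 13.3 TPM for Mbtps1. The 8 fatty acid genes that SREBP-1 drives had a median of 6.85 TPM, from 55.1 TPM for Scd2 to 0.590 TPM for Scd1, desaturases of the same family. The 5 LXR partners and targets had a median of 9.84 TPM, from 47.2 TPM for Nceh1, a cholesterol ester hydrolase, to 4.92 TPM for Arl4c, a small GTPase. That list therefore lay well under the 49.6 TPM median of the LXR and efflux genes. The 6 other sterol transport genes had a median of 29.3 TPM, with Gramd1a, a carrier of cholesterol from the plasma membrane, at 107 TPM and its relative Gramd1c at 0.150 TPM and not detected. Of the 3 other oxysterol enzymes, Cyp27a1, a mitochondrial sterol hydroxylase, was highest with 19.5 TPM, and Cyp7b1, which breaks oxysterols down, had no count in either library. A gene with 0 counts may still hold up to 3 counts, which is 0.152 CPM (counts scaled to the same total as TPM) in library 1 and 0.174 CPM in library 2, for counting error only.

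Between the libraries, the LXR receptor genes and Ch25h leaned to library 1, and Npc1 and Hsd17b7 to library 2. Each ratio was taken as log2((TPM + 1) in library 1 / (TPM + 1) in library 2) and centred by 0.27, the median of detected protein-coding genes. Of the 34 members 0 were more than 2-fold apart, against a background of 1.60% of detected protein-coding genes (0.864% higher and 0.737% lower in library 1). The median size of the ratio was 0.19 over the members and 0.25 over all detected protein-coding genes. Nr1h3 was nearest to 2-fold, with a ratio of 0.99, and then came Ch25h at 0.75 and Nr1h2 at 0.60. On the other side Npc1 had -0.67 and Hsd17b7 -0.65, and Hsd17b7 was -0.14 on TMM-scaled counts. For Ch25h the ratio was 1.31 with a pseudocount of 0.1 TPM, 1.36 on TMM-scaled counts and 1.41 with DESeq2 size factors, all past 2-fold, but 0.52 with kallisto TPM brought to the RSEM total. The other named ratios kept their sign in these settings, and Nr1h3 was 0.99 with TMM and 0.89 with the scaled kallisto TPM.

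The arms of the synthesis pathway had unlike medians of this ratio, a difference for which there is no test with 1 library on each side. Higher and lower here refer to the centred ratio, that is relative to the median gene. All 11 genes of the squalene and sterol arm were lower in library 1 on it, from -0.65 for Hsd17b7 to -0.03 for Sqle, with a median of -0.39. Of the 10991 detected protein-coding genes 5495 were lower, as the centring sets. As plain TPM, Sqle, Fdft1, Lss and Nsdhl were higher in library 1 and Ebp was equal. The mevalonate arm had 3 genes higher and 4 lower in library 1, with a median of -0.01. The LXR and efflux genes had 3 higher and 2 lower, with a median of 0.03 that was negative under every other scaling tried. The fatty acid genes driven by SREBPs went both ways, most of them to library 2. Of these 8 genes 5 were lower in library 1, from -0.79 for Scd1 to -0.44 for Fads1. The 3 others were higher, Acaca at 0.76, Fasn at 0.05 and Acly at 0.03, with a median of -0.56 over the 8. In the squalene and sterol arm all 11 signs were also negative with TMM-scaled counts, DESeq2 size factors, a pseudocount of 0.1 TPM and the scaled kallisto TPM, and 7 of 11 were negative with kallisto TPM as deposited. This grouping was seen in the values and not sought beforehand. The labelled RNA input and the mitochondrial share also differ between the libraries, and their part in the result was not tested.

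**Figure D3:**
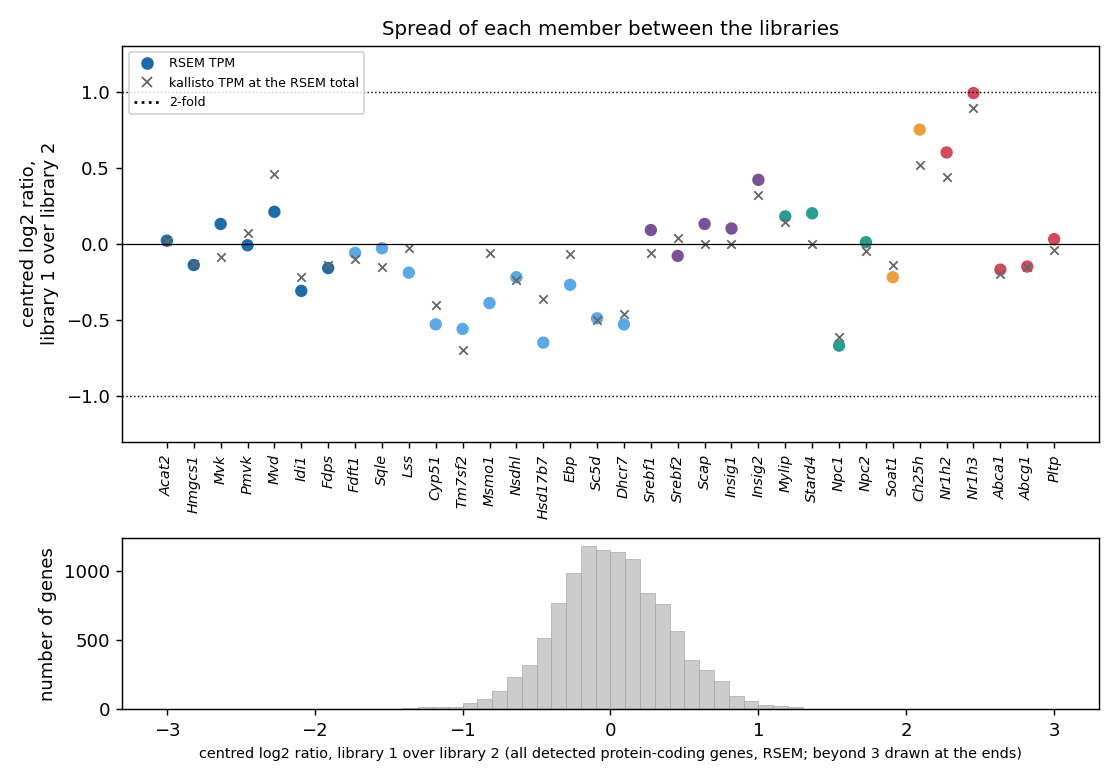
The upper panel shows the centred log2 ratio of library 1 over library 2 for each member, with coloured circles for RSEM TPM and crosses for kallisto TPM brought to the RSEM total, and dotted lines at 2-fold. The lower panel is a histogram of the same RSEM ratio over all detected protein-coding genes; Nr1h3 reaches 0.99, and all 11 genes of the squalene and sterol arm lie below 0.

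Nuclear RNA holds transcripts that are still being spliced, and the programs assign some of their reads to transcripts classed as retained introns. A retained intron and one not yet removed cannot be told apart in these tables. Of the members, 27 had the 100 or more counts in both libraries needed to describe transcript shares. Their median share of TPM outside protein-coding transcripts was 10.8% in library 1 and 13.2% in library 2, against 24.7% and 21.1% for 7640 protein-coding genes with as many counts. At least 30% of TPM lay in retained-intron transcripts in both libraries for 5 members, Lss, Srebf2, Npc1, Npc2 and Nr1h3, against a background of 21.4%; with kallisto it was 7 members, against 28.8%. Npc2 had 50.3% in library 1 and 42.6% in library 2. Nr1h3 had 42.7% in library 1 and 48.6% in library 2. With RSEM Nr1h3 was also the 1 member whose leading transcript was non-coding in both libraries, against a background of 9.29%. This was the retained-intron form Nr1h3-208 with 33.4% and 37.7% of the gene's TPM. With kallisto Nr1h3-208 led in library 2 (39.5%), but in library 1 the coding Nr1h3-204 led, nearly level with it at 28.8% each.

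The efflux genes were assigned mostly to coding transcripts. Abca1-201, the coding transcript, took 98.7% of the gene's TPM in library 1 and 99.6% in library 2. Abca1 has no annotated retained-intron transcript, so no share could be assigned to that class. Abcg1-201 took 77.8% and 88.6%, and Pltp-201 took 90.4% and 94.8%. Mylip-201 took 97.0% and 98.6%. These 4 LXR targets had at most 7.53% of their TPM, the value of Abcg1 in library 1, outside protein-coding transcripts. For Mylip that share was fixed at 0%, since all its annotated transcripts are coding. Srebf1, counted as a whole gene among the LXR targets, went the other way with 34.8% in library 1 and 51.8% in library 2. Retained-intron shares of the SREBP targets ran both ways. Insig1 had 23.3% of TPM in library 1 and 36.3% in library 2 in its form Insig1-202. Lss had 48.3% in library 1 and 34.1% in library 2, while Dhcr7 had 1.26% and 0.810%. Sc5d had 0% in both, but all its annotated transcripts are coding, so no other value was possible. The median over the 12 synthesis enzymes with enough counts was 7.99% in library 1 and 9.53% in library 2, against 13.4% and 9.93% for the 7640 protein-coding genes.

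**Figure D4:**
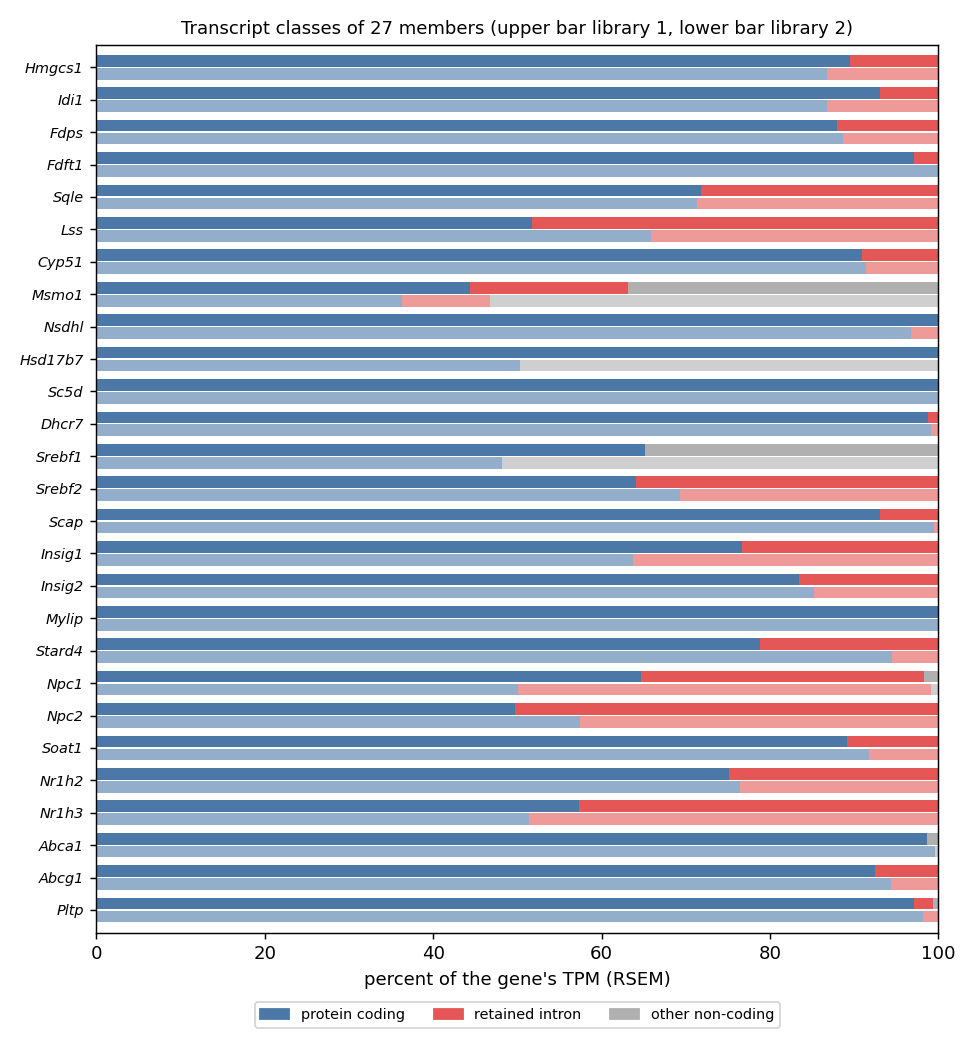
Percent of each gene's RSEM TPM in protein-coding (blue), retained-intron (red) and other non-coding (grey) transcripts for the 27 members with 100 or more counts in both libraries, with the upper bar for library 1 and the lower, paler bar for library 2. Npc2 and Nr1h3 show red shares of 42.6% or more in both libraries. Abca1, which has no annotated retained-intron transcript, is almost wholly blue. Mylip and Sc5d are wholly blue because all their annotated transcripts are coding.

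For 4 members the leading transcript changed between the libraries, against a background of 18.2%. Msmo1 was led by the coding Msmo1-201 in library 1 (36.6%) and by the non-coding Msmo1-206 in library 2 (52.3%). Hsd17b7 was led by Hsd17b7-201 in library 1 with 100% and by a share of 49.7% for the non-coding Hsd17b7-204 in library 2. Sc5d and Nr1h2 changed between coding transcripts, from Sc5d-201 in library 1 to Sc5d-202 in library 2 and from Nr1h2-212 to Nr1h2-201. These shares also depended on the program. With kallisto the leading transcript was another one in at least 1 library for 7 members, against a background of 37.8%. It changed between the libraries for 5 members with kallisto, against 23.3%. With kallisto 2 members, Lss and Stard4, against a background of 18.8%, were led by non-coding transcripts in both libraries, namely the retained-intron forms Lss-207 and Stard4-204, and both were led by coding forms with RSEM. Of the 27 members 19 had a larger non-coding share with kallisto and 6 a smaller one, a count not made over all genes. The median share over the 7640 protein-coding genes was also larger with kallisto. It was 37.0% in library 1 and 33.5% in library 2, against 24.7% and 21.1% with RSEM.

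Some members share transcribed bases with other genes, and whether counting used the strand is not given in the sources used here. Of the 34 members 13 share exonic bases with another gene, 10 of them with a gene on the opposite strand. Fdft1 shares 774 bases, 18.3% of its exonic length, with Ctsb, a lysosomal protease gene with 1771 TPM in library 1 and 1619 in library 2, so its level of 2.90 TPM is uncertain. Pltp shares 495 bases (19.3%) with Ctsa, which had 269 TPM in library 1 and 220 in library 2. Tm7sf2 shares 532 bases on the same strand with Vps51. For 7 members another gene holds a near-identical stretch, at 95% identity or more over 200 bases or more. Acat2 matches Acat3 at 97.7% over 1477 bases, and Fdps has processed pseudogenes with between 0 and 1.00 expected counts. Acat3 held 15.7 counts in library 1 and 14.4 in library 2, against 92 and 82 for Acat2. Msmo1, the highest enzyme, shares stretches with 6 genes, among them Zmynd8 with 3601 counts in library 1 and 2928 in library 2 and Gas2l3 with 1675 and 1812. Dhcr7 shares stretches with 15 genes, among them D10Wsu102e with 2775 counts in library 1 and 2193 in library 2. How far these stretches moved reads between genes was not tested. For 18 members neither kind of sharing was found, among them Abca1, Abcg1, Srebf2, Soat1 and Npc2. For 12 members the deposited TPM lay outside its own deposited interval in at least 1 library, and the level of that interval is not given in the sources used here. Shares of all genes with such an interval, with shared exonic bases or with near-identical stretches were not computed. These counts therefore cannot be called particular to the members.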

How the data were processed

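For each library 3 tables were used, 1 by gene and 1 by transcript with RSEM's columns, and 1 by transcript with kallisto's columns. Build mm10 and annotation GENCODE M21 are named in the submitters' notes. Neither an aligner nor a program version is stated in the sources used here. Expected counts and estimated counts were deposited by the authors as estimates that need not be whole. TPM was deposited by the authors, per the file headers, over all features of each table. The percent of a gene's TPM in each transcript was deposited by the authors and recomputed here. The bounds of the TPM interval, treated as a score of precision, were deposited by the authors.

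The 26345 features without a gene identifier held 0.653% of counts in library 1 and 0.222% in library 2 and were left out. No per-sample column was set aside. Both libraries form 1 group, so no p-value was computed. All 34 members are named by role, other pathway genes are given by list with their highest and lowest member, and transcripts are named where their share decides a statement. The members and lists were chosen with earlier results of these data known. Genes with 10 or more expected counts in both libraries were called detected, and TPM ratios had a pseudocount of 1. A percentile is the place of a median among detected protein-coding genes. TMM factors from edgeR 4.0.16 and size factors from DESeq2 1.42.0 (R 4.3.3), both on expected counts rounded to whole numbers, served as other scalings of the ratios. The ratio was checked on simulated counts with known folds. Shared stretches were found with BLAST 2.17.0 at 95% identity over 200 bases. Promoter windows are RefSeq's on GRCm38.p6. Counting floors cover counting error only.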

Additional observations from a re-analysis of the deposited data

How the results depend on the processing

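No paired analysis was possible because both libraries belong to the same group. The synthesis minus LXR and efflux difference of -3.22 kept its sign in every setting run. It was -3.46 with a pseudocount of 0.1 TPM and -4.73 on CPM, which has no length scaling, and -3.45 to -3.19 with either library left out. The synthesis percentile of 40.4 was 35.0 with kallisto and 40.4 to 44.2 with either library left out, and the LXR and efflux percentile of 91.6 was 95.8 on CPM and 92.3 to 92.6 with either library left out. All 34 members were detected in every setting except a minimum of 50 counts, which gave 32. The count over 2-fold apart was 0, and 1, Ch25h, with TMM, with DESeq2 size factors and with a pseudocount of 0.1 TPM.

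Median ratios of library 1 over library 2 moved as follows, and the cause was not tested beyond the scale of kallisto TPM, whose lower values shrink log2(TPM + 1) ratios. With kallisto TPM as deposited they were -0.10 for the synthesis enzymes, 0.10 for the mevalonate arm, -0.18 for the squalene and sterol arm, -0.21 for the SREBP factors, -0.27 for uptake control and transport, 0.12 for esterification and oxysterol and -0.36 for LXR and efflux. Brought to the RSEM total, a setting chosen after seeing the data, kallisto TPM gave -0.24 for the squalene and sterol arm and -0.02 for uptake control and transport. TMM gave -0.28 for the squalene and sterol arm, -0.08 for uptake control and transport, 0.51 for esterification and oxysterol and -0.07 for LXR and efflux. DESeq2 size factors gave -0.09, 0.53 and -0.08 for the last 3 of these, and a pseudocount of 0.1 TPM gave 0.51 for esterification and oxysterol. Of the small medians, the mevalonate arm and the SREBP role changed sign with kallisto as deposited, the uptake role also with TMM, DESeq2 and the scaled kallisto TPM, and the LXR role in all of these and with a pseudocount of 0.1 TPM, where it was -0.04, as with the scaled kallisto TPM. Of 34 member levels 23 stayed within their spread between libraries with kallisto and 11 did not, of which Mvd, Lss and Stard4 moved by over 1.5 times, and of 27 non-coding shares 9 stayed and 18 did not. Depth limits Ch25h most, at 19 counts in library 2.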
